A study of Drosophila melanogaster with 6 samples.

Results

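Leucine, isoleucine and valine, the branched-chain amino acids, are broken down by enzymes encoded by 9 genes listed here by symbol: Bcat (CG1673, FBgn0030482), BckdhA (CG8199, FBgn0037709), BckdhB (CG17691, FBgn0039993), CG6638 (FBgn0035911), CG3902 (FBgn0036824), Hibch (CG5044, FBgn0038326), CG15093 (FBgn0034390), Mccc1 (FBgn0039877) and Mccc2 (FBgn0042083). They were chosen as a list of symbols, with 4 of them matched through synonyms, and all 9 were found among the 15796 genes of the count table and had enough counts to be tested. RNA was sequenced from the fat body of late 3rd instar Drosophila melanogaster larvae (strain label w1118) in 3 control libraries (R4-Gal4/+) and 3 AKH overexpression libraries (UAS-AKH/+; R4-Gal4/+). Both groups carry the R4-Gal4 driver, which acts in the fat body. In the overexpressing larvae the gene of adipokinetic hormone is thus driven in the tissue that normally receives the hormone. Only RNA was measured, not the hormone. No UAS control without the hormone gene was analysed here.

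The 3 amino acids share their first steps. An aminotransferase, Bcat, removes the amino group, and the mitochondrial branched-chain 2-oxoacid dehydrogenase, whose first component is made of BckdhA and BckdhB, commits the carbon skeleton to breakdown. The routes then part: CG6638 (isovaleryl-CoA dehydrogenase) and the biotin enzyme methylcrotonyl-CoA carboxylase (Mccc1 and Mccc2) act on leucine, CG3902 (a short/branched-chain acyl-CoA dehydrogenase) on isoleucine, and Hibch and CG15093 on valine. These roles are taken from the human counterparts. The end products, acetyl-CoA, acetoacetate and propionyl-CoA, can feed lipid synthesis and the citric acid cycle, and adipose tissue is a known site of this breakdown in mammals.

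None of the 9 genes passed the test for a change with AKH overexpression. Mccc2 came closest. Its controls averaged 26.2 ± 2.50 CPM and its AKH overexpression libraries 19.6 ± 0.333 CPM (mean ± SD, n = 3), with adjusted p = 0.0580. Among 11 other genes assigned to the same routes 2 fell, scu and CG4860, beside 1.91% of all tested genes. Each lost its call in some of the fits that left out 1 library. Mccc1 and Mccc2 encode the subunits of 1 enzyme. Their RPKM ratio was 1.03 ± 0.00519 in controls and 1.23 ± 0.0130 with AKH overexpression. The groups did not overlap for this ratio, unlike for the other pairs compared. The share of all gene pairs that part in this way was not computed. The exact permutation p of the ratio was 0.1, or 0.267 once adjusted over 4 pairs, and so few libraries could not have passed. Counting error of the log2 ratio, 0.0660 to 0.0795 per library, exceeded its SDs between libraries, so the SDs are too small as a measure of error.

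CPM, counts divided by library sizes that TMM has adjusted, serve for comparing libraries. RPKM are the authors' deposited values, scaled by gene length, and serve for comparing levels between genes. Log2 fold changes compare AKH overexpression with control. The quasi-likelihood test of edgeR supplied the p-values, adjusted by Benjamini and Hochberg's method across the 10705 genes tested; "rose", "fell" and "called" are kept for adjusted p under 0.05. In that test 404 genes passed, 3.77% of those tested. Whether the 3 libraries of a group stem from different pools of larvae is not labelled, so the spread that the p-values measure may be technical.

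The libraries held 29803513 to 33150911 counts, and Akh itself was at 1.82 to 2.44 CPM in the controls and 1635 to 2087 CPM with AKH overexpression, as the labels state. Fat body markers dominated: the 9 listed, among them the larval serum proteins, summed to 340958 to 482127 CPM. RNA of other tissues was also present. The 8 salivary gland markers summed to 18864 to 29046 CPM. The 12 midgut markers summed to 1590 to 4491 CPM in controls but to 4.53, 761 and 11.02 CPM in AKH replicates 1 to 3, and the 11 muscle markers found to 108 to 137 and 86.4 to 106 CPM. The 14 male germline markers summed to 33.4 to 44.9 CPM in control replicate 2 and AKH replicates 1 and 2 and to 7.58 to 10.6 CPM in the other libraries. The 6 haemocyte markers summed to 179 to 243 and 164 to 220 CPM, the 8 cuticle markers to 68.2 to 106 and 16.4 to 172 CPM, and no marker of these lists was at 0 in every library. The summed midgut and muscle markers were thus lower in every AKH library than in every control, the muscle sums by a narrow margin, and their part in the results was not tested. Of 10 muscle markers tested 7 were lower in every AKH library, 1 (sls) was higher in every AKH library and 2 overlapped. Of 9 midgut markers tested 6 were lower in every AKH library and 3 overlapped. Over all tested genes 13.5% were lower in every AKH library. Of the 9 fat body markers 2 fell (Lsd-1 and AkhR), as did 2 of 10 muscle markers tested and 1 of 6 haemocyte markers (NimC1). No tested marker of the other lists was called. Over all tested genes 1.91% fell. In whole tissue, fewer cells of a type and less RNA per cell cannot be told apart.

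The 9 genes covered a wide range of levels in control fat body. CG3902 led with 206 ± 13.3 RPKM (n = 3), above 96.7% of the tested genes, followed by BckdhB with 71.6 ± 6.41 RPKM and Hibch with 20.4 ± 1.63 RPKM. CG6638 (13.1 ± 1.104 RPKM), Mccc1 (12.6 ± 1.30), Mccc2 (12.2 ± 1.20), Bcat (11.5 ± 2.66) and BckdhA (9.58 ± 1.82) formed a middle group in which each gene's control libraries overlapped those of the next. CG15093 was lowest at 1.38 ± 0.617 RPKM, with 39 to 79 counts per control library. The gaps from CG3902 to BckdhB, from BckdhB to Hibch, from Hibch to CG6638 and from BckdhA to CG15093 were wider than the spread between the control libraries.

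**Figure D1:**
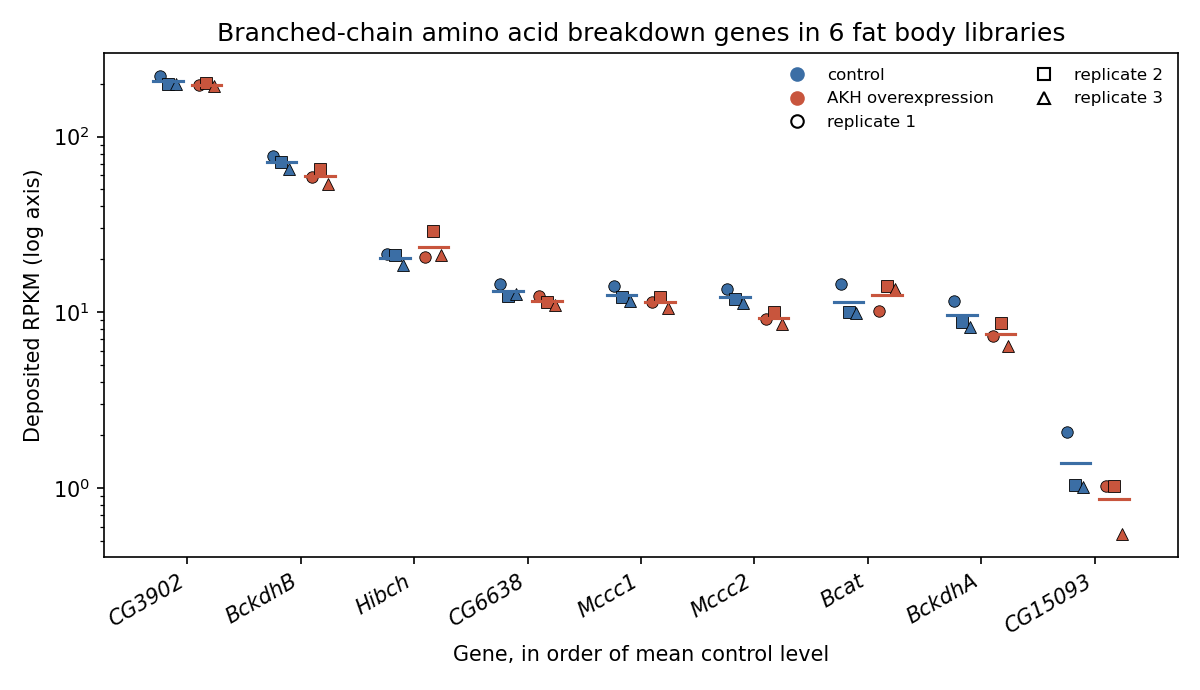
Deposited RPKM on a log axis for the 9 genes in each of the 3 control and 3 AKH overexpression libraries, ordered by mean control level, with horizontal bars at the group means. The genes run from CG3902 at about 206 RPKM to CG15093 at about 1.38 RPKM in controls, and the groups lie apart on this scale only for Mccc2.

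Transamination opens the pathway, and Bcat was among the genes with no clear change. Control replicates 1 to 3 had 35.3, 23.2 and 28.5 CPM, and AKH replicates 1 to 3 had 25.8, 32.8 and 36.1 CPM. Each group spanned a similar range and the groups overlapped almost fully. The log2 fold change was 0.12 (95% interval -0.33 to 0.57, adjusted p = 0.801), and it became -0.03 without control replicate 2. The interval leaves room for a fall to 0.795 times or a rise to 1.49 times the control level.

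The committed step had lower values in both of its measured first-component subunits, without passing the test. BckdhA, the alpha subunit, was at 19.7, 14.2 and 16.6 CPM in the controls. The AKH libraries were at 12.9, 14.1 and 11.8 CPM, each below the lowest control, though by a narrow margin. BckdhB, the beta subunit, was at 73.8, 65.4 and 73.2 CPM in the controls. Its AKH libraries were at 58.8, 59.5 and 55.4 CPM, again all below the controls. The log2 fold change of BckdhA was -0.38 (SE 0.14, 95% interval -0.71 to -0.05, adjusted p = 0.222). That of BckdhB was -0.29 (SE 0.08, 95% interval -0.48 to -0.11, adjusted p = 0.110). On the deposited RPKM, which carry no TMM scaling, the groups overlapped for both: the highest AKH library was at 8.70 and 65.2 RPKM and the lowest control at 8.27 and 65.0 RPKM. DESeq2 called BckdhB lower (adjusted p = 0.0268) and not BckdhA (0.206). The later components of the complex gave no clear change either. Dbct (CG5599), which encodes the E2 transacylase, was at 8.27 ± 1.92 and 6.27 ± 2.15 CPM (log2 fold change -0.40, adjusted p = 0.540), and CG7430, the E3 dehydrogenase shared with the pyruvate and 2-oxoglutarate complexes, at 183 ± 19.6 and 187 ± 12.9 CPM (0.03, adjusted p = 0.930).

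In leucine breakdown, CG6638 and Mccc1 overlapped between the groups, whereas Mccc2 did not. CG6638 spanned 17.2 to 21.9 CPM in controls and 16.0 to 19.0 CPM in the AKH libraries (log2 fold change -0.20, 95% interval -0.48 to 0.08, adjusted p = 0.446). Mccc1, the biotin-carrying alpha subunit of the carboxylase, was at 34.5, 28.6 and 33.6 CPM in control replicates 1 to 3 and at 29.2, 28.7 and 28.3 CPM in AKH replicates 1 to 3. All AKH libraries thus sat beside the lowest control (log2 fold change -0.17, 95% interval -0.38 to 0.04, adjusted p = 0.390). Mccc2, the beta subunit, was at 27.9, 23.4 and 27.4 CPM in the controls and at 19.7, 19.8 and 19.2 CPM in the AKH libraries. Every AKH library of Mccc2 was below every control, also on the RPKM scale, and the 3 AKH values were nearly equal. Its log2 fold change was -0.42 (SE 0.09, 95% interval -0.63 to -0.21, unadjusted p = 0.00241, adjusted p = 0.0580). Mccc2 passed the threshold without control replicate 2 (adjusted p = 0.0285, in a fit that called 2.51% of the genes tested), with a filter of at least 1 CPM in 3 libraries (0.0492, with 4.42% called) and with DESeq2 (0.00936, with 5.09% called lower), and in the other 5 fits that left out 1 library its adjusted p was 0.111 to 0.230.

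The carboxylase subunits were also set against each other within each library, where library scaling cancels. The RPKM ratio of Mccc1 to Mccc2 was 1.04, 1.03 and 1.03 in control replicates 1 to 3 and 1.24, 1.22 and 1.24 in AKH replicates 1 to 3. The libraries of a group were almost identical and the groups did not overlap. How often the ratios of other gene pairs part in this way was not computed. The log2 ratio was higher with AKH overexpression by 0.26, with an exact two-sided permutation p = 0.1, the smallest that 3 against 3 libraries allow, and 0.267 after adjustment over the 4 pairs compared. Counting error alone gives each library's log2 ratio an error of 0.0660 to 0.0795, larger than the SDs of 0.00725 and 0.0153 seen between libraries, so these SDs understate the error. For the difference of 0.26 the counting error is 0.0591. On the later reference annotation Mccc1 lies across faf on the opposite strand. Since the handling of strand is not given, the counts of both genes may be affected.

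For the other 3 pairs the groups overlapped. BckdhA to BckdhB was 0.133 ± 0.0146 in controls and 0.126 ± 0.00695 with AKH overexpression (log2 difference -0.08, exact permutation p = 0.6). By deposited RPKM, transcripts of the alpha subunit were thus far less abundant per length than those of the beta subunit in every library. On the later annotation BckdhA overlaps AP-1mu, and CG6638 of the next pair rhea, on the opposite strand. Since the handling of strand is not given, these ratios may be affected. CG6638 to CG3902, the acyl-CoA dehydrogenases of the separate routes, was 0.0636 ± 0.00130 and 0.0586 ± 0.00390 (-0.12, exact permutation p = 0.2). Hibch to CG15093, which act one after the other on valine, was 16.3 ± 5.31 and 28.9 ± 9.28 (0.83, exact permutation p = 0.2), with few counts behind CG15093. The adjusted p over the 4 pairs was 0.6 for the first and 0.267 for the others. With 3 libraries a group no pair could have passed the threshold.

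**Figure D2:**
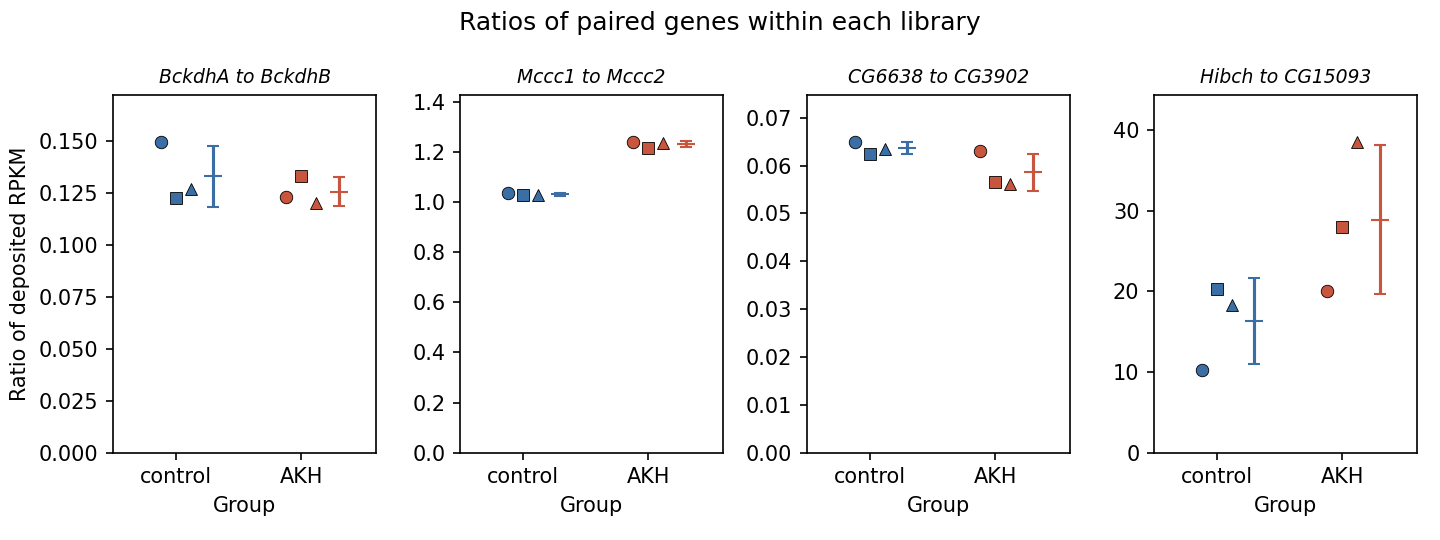
Ratio of deposited RPKM between the genes of each of the 4 pairs within each library, by group, each panel with its own axis from 0; symbols are libraries (circle, square and triangle for replicates 1, 2 and 3) and bars show mean ± SD over n = 3. The Mccc1 to Mccc2 ratio is 1.03 to 1.04 in controls and 1.22 to 1.24 with AKH overexpression, and the other pairs overlap.

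In isoleucine and valine breakdown no listed gene passed the test. CG3902 was at 338, 289 and 361 CPM in control replicates 1 to 3 and at 315, 296 and 325 CPM in AKH replicates 1 to 3. The AKH libraries lay within the range of the controls. With 9343 to 10485 counts per library, CG3902 had a log2 fold change of -0.08 (95% interval -0.34 to 0.18, adjusted p = 0.770), so the interval reaches 0.790 and 1.13 times the control level. Hibch, which releases 3-hydroxyisobutyrate from coenzyme A, was at 34.9, 32.6 and 35.6 CPM in the controls and at 34.9, 45.0 and 37.4 CPM in AKH replicates 1 to 3. AKH replicate 2 was the highest, AKH replicate 3 slightly above the controls and AKH replicate 1 among them (log2 fold change 0.19, 95% interval -0.07 to 0.45, adjusted p = 0.435; 0.07 without AKH replicate 2). CG15093, the dehydrogenase of that product, had 79, 39 and 40 counts in control replicates 1 to 3 and 43, 40 and 21 counts in AKH replicates 1 to 3. Control replicate 1 was high and AKH replicate 3 low among otherwise similar libraries. Its log2 fold change was -0.68 (95% interval -1.64 to 0.28, adjusted p = 0.442) and it was -0.31 without control replicate 1, the library that moved it most.

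Counted together, 0 of the 9 genes were called by edgeR, beside 3.77% of all tested genes, and 0 by limma-voom, beside 3.48%, while DESeq2 called 2 (BckdhB and Mccc2, both lower) beside 8.50% of the genes it adjusted in either direction and 5.09% lower. At an unadjusted p under 0.05 edgeR had 3 of 9, beside 18.0% of all tested genes in either direction. These 3 (BckdhA, BckdhB and Mccc2) were all lower, as were 1070 of the 1928 tested genes at that level. The groups did not overlap in CPM for these 3 genes, beside 13.5% of all tested genes with every AKH library below every control. On the deposited RPKM this held for Mccc2 alone, beside 10.2%. The log2 fold change was below 0 in 7 of the 9 genes, beside 47.6% of all tested genes, and its median was -0.20, beside 0.02 over all tested genes.

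Among the genes of neighbouring steps 2 passed the test. Of 13 further genes of the pathway, chosen by role but with earlier results of these data known, 11 were found and tested. Of these 2 fell, 0 rose and 9 were not called, beside 1.91% of all tested genes that fell. Their median log2 fold change was -0.25. The mitochondrial dehydrogenase gene scu, which acts on isoleucine-derived 2-methyl-3-hydroxybutyryl-CoA and also in fatty acid oxidation, was at 563, 582 and 797 CPM in control replicates 1 to 3 and at 325, 306 and 318 CPM in AKH replicates 1 to 3. It was the most abundant of these genes, and the groups lay well apart (log2 fold change -1.03, SE 0.15, adjusted p = 0.0199). CG4860 was assigned to the pathway as a gene of the short-chain acyl-CoA dehydrogenase family, and whether it acts in this breakdown was not tested. It was at 18.6, 22.1 and 17.5 CPM in the controls and at 10.98, 10.4 and 10.1 CPM in the AKH libraries (-0.89, SE 0.11, adjusted p = 0.0102). Its groups did not overlap either.

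Both calls were close to the threshold when a library was left out. CG4860 lost its call without AKH replicate 1 (adjusted p = 0.0510) or 3 (0.0505). The call of scu was lost without control replicate 1 or any 1 AKH replicate, with adjusted p up to 0.0999, while its log2 fold change stayed between -1.14 and -0.86. The call count for the 11 genes was therefore 0 without AKH replicate 1 or 3 and 1 without control replicate 1 or AKH replicate 2. The 9 genes not called ran from CG17896, the methylmalonate semialdehyde dehydrogenase of valine breakdown (-0.44, adjusted p = 0.168), to SCOT, the ketone body transferase (0.08, adjusted p = 0.877). CG17896, singled out after its values were seen, was called lower by DESeq2 (adjusted p = 0.0462).

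**Figure D3:**
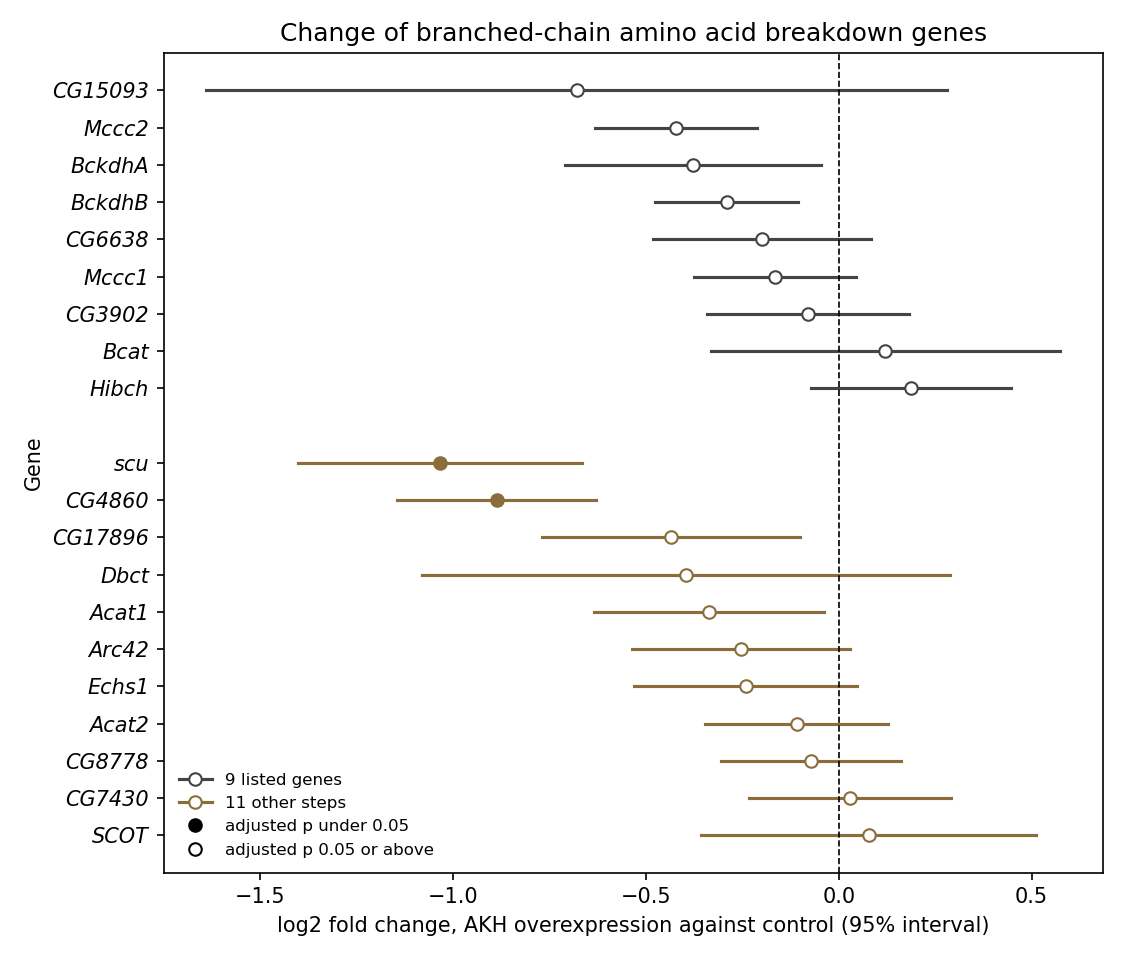
Log2 fold changes (AKH overexpression against control) are shown with 95% intervals. The 9 listed genes are in the upper block and 11 other genes assigned to branched-chain amino acid breakdown in the lower block. Filled points have an adjusted p under 0.05. The filled points are scu (-1.03) and CG4860 (-0.89), and no listed gene is filled.

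Partners of these enzymes were examined in 3 short lists. The electron transfer flavoprotein takes electrons from the acyl-CoA dehydrogenases. Of its 2 genes found, wal and Etfb, 0 were called, with the more abundant, Etfb, at 301 ± 41.9 and 238 ± 16.5 CPM (log2 fold change -0.34, adjusted p = 0.226). For both genes every AKH library was below every control in CPM, beside 13.5% of all tested genes, and in RPKM, beside 10.2%. Limma on log2(RPKM + 1) or log2(RPKM + 0.1) called Etfb lower (adjusted p = 0.0391 and 0.0385). These fits called 561 and 583 genes, beside 404 in the main test. DESeq2 and limma-voom did not call Etfb. Of 3 biotin-linked genes found besides Mccc1, 1 fell, beside 1.91% of all tested genes. It was pyruvate carboxylase, PCB, which went from 1597 ± 372 to 726 ± 116 CPM (-1.14, SE 0.20, adjusted p = 0.0361). Leaving out any 1 library other than control replicate 3 ended its call, at adjusted p up to 0.160, as did testing without a filter on low counts (0.0506), while its log2 fold change without 1 library was -1.28 to -0.93. Of 5 genes of the sister pyruvate and 2-oxoglutarate dehydrogenase complexes and their regulation, 0 were called. All 5 had log2 fold changes below 0, beside 47.6% of all tested genes, with a median of -0.42. Pdhb, the counterpart of BckdhB and the most abundant of them per length in controls, was at 118 ± 13.9 and 116 ± 1.23 CPM (-0.03, adjusted p = 0.923). In CG5214, Ogdh and Pdk, named after their values were seen, every AKH library was below every control, beside 13.5% of all tested genes in CPM. CG5214 encodes the succinyltransferase of the 2-oxoglutarate complex (-0.43, adjusted p = 0.0553) and Ogdh its first component (-0.42, 0.176). Pdk encodes the pyruvate dehydrogenase kinase (-0.42, adjusted p = 0.295).

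The libraries differed in male germline RNA within both groups, and fits on the libraries low or high in it leave 1 group with a single library, which is assumed to vary like the others. Neither fit is therefore a separate check of the groups. Among control replicates 1 and 3 and AKH replicate 3, 2 genes were called in all (0.0193%), so a count of 0 among the 9 genes says little. Among control replicate 2, the lone control, and AKH replicates 1 and 2, 620 genes were called in all (5.43%) and again 0 of the 9. In the latter fit the log2 fold changes of CG6638, CG3902, CG15093 and Mccc1 were 0.05, 0.11, 0.09 and 0.05, above 0 and not below it as in all 6 libraries. Control replicate 2, the whole control group of that fit, had the lowest CPM of the 3 controls for each of these 4 genes. Of the 11 other pathway genes 0 and 1 were called in these fits.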

How the data were processed

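RNA was extracted from dissected fat bodies and sequenced after TruSeq RNA library preparation, per the labels' protocols. The authors deposited raw gene counts and, in another table, RPKM. The submitters' processing notes name the build BDGP5 and, without their roles, HTSeq 0.5.4p3, TopHat2 2.0.9, DESeq 1.10.1 and Bowtie2 2.0.6. Annotation release, filters and handling of strand: not given in the sources used here. On the later annotation at hand BckdhA, CG6638, CG3902, Hibch, CG15093 and Mccc1 overlap genes on the opposite strand, so their counts may be affected. No coordinates are given because the builds differ. Deposited RPKM equalled counts over library total and 1 length per gene in 7684 genes checked, with a relative spread of the implied length of at most 1.04e-07. Of the names listed for further genes and markers, Pcca, Pccb, Pdhx, Etf-QO, muc and 1 muscle marker were not analysed here, and 1 further pathway gene is not reported here.

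Counts were tested with edgeR 4.0.16 (R 4.3.3) by a quasi-likelihood F test of group in all 6 libraries, without covariates, after filterByExpr and TMM scaling. The SE is the log2 fold change over the square root of F, and 95% intervals use the t distribution of the fit. Pairs of genes were compared by exact permutation of log2 RPKM ratios. Limits and errors from counts cover counting error only, and an observed 0 allows up to 3 counts, or 0.0905 to 0.101 CPM. Within groups the chi-square per degree of freedom was 36.4 to 87.8, so no library repeats another. Replicate numbers were not taken as pairs. Alternatives were other scalings, filters, DESeq2 1.42.0, limma 3.58.1 (voom, and log2(RPKM + 1) or log2(RPKM + 0.1)), the replicate block and leaving out each library. The fits split by male germline RNA were added after the data were seen. Members and lists were chosen with earlier results of these data known. The named genes are the 9 members, Akh and, of each further list, the called genes and the most abundant. The rule also named genes of similar pattern for called members, of which there were 0. Scripts were tested on simulated data. Figures were drawn with matplotlib 3.10.9.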

Additional observations from a re-analysis of the deposited data

How the results depend on the processing

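For all genes, the number called was 404 and moved to 989 with DESeq2, to 2 and 620 in the libraries low and high in male germline markers, and to 144 to 479 when 1 library was left out. Of the 9 listed genes 0 were called, and 1 with the filter of at least 1 CPM in 3 libraries, 2 with DESeq2 and 0 to 1 when 1 library was left out. Of the 11 other pathway genes 2 were called, and 3 with DESeq2, 3 with limma on log2(RPKM + 0.1) and 0 to 2 when 1 library was left out. With the replicate block 430 genes, 0 of the 9 and 2 of the 11 were called; deviations of same-numbered libraries correlated at -0.37, 0.60 and 0.50, and 3 of 6 libraries correlated best with their own number. Signs turned for Bcat without control replicate 2 (-0.032; -0.032 to 0.27 over the fits without 1 library), for CG6638 (0.0505), CG3902 (0.11), CG15093 (0.092), Mccc1 (0.0484) and Pdhb (0.21) in the libraries high in male germline markers, where control replicate 2 is the lone control, and for Pdhb without control replicate 1 or 3 (-0.14 to 0.020 without 1 library). The log2 ratio difference without 1 library was -0.14 to 0.0077 for BckdhA to BckdhB. Over the fits run, 176 of 180 alternative values of the 9 genes were not called. The cause of these moves was not tested. For none of the 9 genes does the interval show that it is unchanged. The intervals of BckdhA (-0.71 to -0.05), BckdhB (-0.48 to -0.11) and Mccc2 (-0.63 to -0.21) lay below 0. These intervals are not adjusted for the number of genes tested. The other intervals included 0 and leave room for a change in either direction. Those of Bcat and CG15093, the latter with 21 to 79 counts, were the widest.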
